A study of Mus musculus with 11 samples.

Results

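Branched-chain amino acid catabolism was followed through 10 genes in immortalized mouse preadipocytes and adipocytes of inguinal subcutaneous white adipose tissue (im-scWAT). The 10 genes were chosen by symbol, out of 29955 gene symbols with a sense transcript marked as representative in the files. They are Bcat1, Bcat2, Bckdha, Bckdhb, Dbt, Ivd, Mccc1, Mccc2, Hibch and Acadsb. Leucine, isoleucine and valine are first transaminated by Bcat1 in the cytosol or Bcat2 in mitochondria, and the resulting branched-chain keto acids are then oxidatively decarboxylated by the branched-chain keto acid dehydrogenase complex. The 3 carbon skeletons then follow separate arms that end in acetyl-CoA, acetoacetate and propionyl-CoA. White and brown fat cells are known to oxidise branched-chain amino acids and to use the carbon for lipid synthesis or as fuel, and Bcat2 is the transaminase of most peripheral tissues, while Bcat1 is typical of the brain and of many proliferating cells.

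RNA-seq covered 11 libraries. The im-scWAT line was made from the stromal vascular fraction of inguinal fat with SV40 large T antigen, and all libraries carry this transgene. In the time course of 6 libraries, confluent preadipocytes (day 0, 2 libraries), cells at day 4 and cells at day 8 were sampled, with 1 library per condition at days 4 and 8 with rosiglitazone (ROS), a PPARγ ligand, at 0.5 μM or without it. All induced cells received indomethacin, dexamethasone, isobutylmethylxanthine, insulin and T3. The pair of day 0 is labelled ROS plus and minus, but ROS was added only with the induction medium at day 0, so both were treated as preadipocytes before induction. The labels have ROS withdrawn on day 7 unless otherwise stated, whereas the methods of the study keep it to day 8, and the groups follow the ROS label alone. In the other 5 libraries, all at day 8 and labelled ROS plus, endogenous Jmjd1a (Kdm3a, a histone H3 lysine 9 demethylase) was knocked down by an shRNA driven by U6, and human JMJD1A was expressed from a retroviral LTR in drug-selected cells. The constructs were wild type (WT A and WT B), S265A, in which the serine phosphorylated by protein kinase A is replaced by alanine, S265D, which carries aspartate there, and S265D-H1120Y, which in addition has the iron-binding histidine of the demethylase replaced. Each mutant had 1 library. Sources used here do not say whether any 2 libraries came from separate cultures, so p-values measure only the spread between these libraries. In the fit of day plus ROS, that spread includes any change of the ROS effect between days 4 and 8.

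The libraries held 3.10 to 5.29 Gb of mapped bases. The unit was FPKM, mapped bases per kilobase of exon and per megabase mapped in the library. Levels were compared between libraries without further scaling, which assumes that the libraries are alike in total. The median gene was at a log2 ratio of -0.21 with ROS over no ROS at day 8. Scaling each library to its median gene was run as an alternative. The lowest value of any member rested on 12615 mapped bases (Bcat1 at day 8 with ROS), so all 10 members were measured well above the detection limit and all 10 passed the minimum mean of 0.1 FPKM. The 7 adipocyte markers (Adipoq, Fabp4, Plin1, Pparg, Cebpa, Lipe, Cidec) summed to between 269.97 and 271.7 FPKM at day 0, to between 9560.2 and 35881 at days 4 and 8 and to between 15403 and 28966 in the transduced libraries. The macrophage genes Emr1 and Ptprc and the muscle genes Myod1 and Ckm were listed at 0 in all 11 libraries. Other genes of these lists were not. Cd68 ranged from 0.541 (day 4 without ROS) to 21.7 FPKM (S265D-H1120Y), while Csf1r and Itgam reached at most 0.332 and 0.0115. Acta1 ranged from 0.224 (day 4 without ROS) to 19.3 (WT B). The endothelial gene Pecam1 was at 0.0686 and 0.0526 at day 0 and reached 3.47 in S265D-H1120Y. The source of these signals was not tested. Kdm3a was at 23.2 and 20.9 FPKM at day 0, at 15.1 to 16.0 in the other libraries of the time course except day 8 with ROS, where it was at 21.1, at 20.4 and 17.9 in the WT pair, at 13.0 in S265A, at 23.0 in S265D and at 28.5 in S265D-H1120Y, so its FPKM does not by itself show a knockdown. In bulk RNA, fewer cells of a type and less RNA per cell cannot be told apart.

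The members lie on 7 chromosomes of mm9, the build of the files. Bcat1 spans chr6:144942355-145024677 on the minus strand, Bcat2 chr7:52825733-52845078 on the plus strand, Bckdha chr7:26414871-26443780 on the minus strand, Bckdhb chr9:83842388-84017847 on the plus strand and Dbt chr3:116215997-116252899 on the plus strand. Ivd spans chr2:118687736-118707093 on the plus strand, Mccc1 chr3:35858231-35899600 and Mccc2 chr13:100718487-100785594 on the minus strand, Hibch chr1:52901890-52977704 and Acadsb chr7:138554115-138589725 on the plus strand. The representative transcript of Bckdhb starts 23644 bases downstream of its RefSeq start. Its only other transcript in the files, of 1471 exon bases against 1398, had a similar level at day 8 with ROS (54.9 FPKM against 54.7).

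Since Bcat1 and Bcat2 moved in opposite directions and the leucine genes Ivd and Mccc1 rose, the 250 bases before the RefSeq starts of these 4 genes are shown. The sequences are from RefSeq (GRCm38.p6), of which 9 of the 10 members had an entry (Dbt had none), and each was matched letter for letter to a single position in mm9. They are written 5′ to 3′ on the strand of the gene, with CCAAT, read on either strand and so also as ATTGG, in capitals. The windows lie at chr6:145024678-145024927 on the minus strand (Bcat1), chr7:52825273-52825522 on the plus strand (Bcat2), chr2:118687480-118687729 on the plus strand (Ivd) and chr3:35899601-35899850 on the minus strand (Mccc1).
Bcat1: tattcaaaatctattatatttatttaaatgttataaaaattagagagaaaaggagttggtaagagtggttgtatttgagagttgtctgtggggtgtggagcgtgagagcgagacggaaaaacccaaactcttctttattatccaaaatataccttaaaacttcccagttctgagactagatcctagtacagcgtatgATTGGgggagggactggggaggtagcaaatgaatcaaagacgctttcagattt
Bcat2: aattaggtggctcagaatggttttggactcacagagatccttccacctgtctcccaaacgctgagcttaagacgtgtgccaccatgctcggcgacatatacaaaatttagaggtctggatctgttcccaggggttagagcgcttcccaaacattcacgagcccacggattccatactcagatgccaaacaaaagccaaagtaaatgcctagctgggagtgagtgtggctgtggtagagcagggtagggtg
Ivd: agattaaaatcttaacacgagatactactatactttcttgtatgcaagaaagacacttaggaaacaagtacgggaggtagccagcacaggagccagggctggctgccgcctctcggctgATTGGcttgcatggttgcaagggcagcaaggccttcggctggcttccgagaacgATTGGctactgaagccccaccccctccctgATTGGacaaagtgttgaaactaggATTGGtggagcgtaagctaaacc
Mccc1: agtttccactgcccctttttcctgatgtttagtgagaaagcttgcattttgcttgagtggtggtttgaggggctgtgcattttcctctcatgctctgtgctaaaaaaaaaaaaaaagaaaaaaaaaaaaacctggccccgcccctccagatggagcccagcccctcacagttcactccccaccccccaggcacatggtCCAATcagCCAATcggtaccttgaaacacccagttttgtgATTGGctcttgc
Ivd held 4 such pentamers in this window, Mccc1 held 3, Bcat1 held 1 and Bcat2 held 0. Of the windows not shown, Mccc2 held 3 and Bckdhb 2, while Bckdha, Hibch and Acadsb, which also rose, held 0. The representative transcript of Bcat2 starts 210 bases downstream of its RefSeq start, against 0 for Bcat1 and Mccc1 and 6 for Ivd. The window of Bcat2 thus does not reach the start of the transcript whose FPKM is given. Over windows of 300 bases (250 before to 50 after the start), 5 of the 9 matched members held CCAAT (Bcat1, Bckdhb, Ivd, Mccc1 and Mccc2), against 37.4% of 32851 RefSeq promoters. GGGCGG, read on both strands, was in 4 of the 9 (Bckdhb, Mccc1, Hibch and Acadsb), against 35.7% of promoters. TATAAA was in Bcat1 alone of the 9, against 13.6%, and CACGTG in Mccc2 alone, against 7.15%. The nuclear receptor motif AAGGTCA was in 0 of the 9, against 4.72%, and the direct repeat DR1 was in 0 of the 9, against 0.0396%. The GC content of the 4 printed windows was 37.6% in Bcat1, 50.4% in Bcat2, 51.2% in Ivd and 48.4% in Mccc1, and the median over all promoters was 52.4%.

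Differentiation of im-scWAT raised the message of 9 of the 10 members and lowered that of Bcat1. In limma, 9 members were higher at day 4 than at day 0 and Bcat1 was lower, with 26.3% of 15369 genes called higher and 24.7% called lower. At day 8 against day 0 the members again split into 9 higher and 1 lower, with 29.1% of genes called higher and 29.7% lower. The median log2 change of the 10 members was 2.59 at day 4 and 2.51 at day 8, whereas the median of all genes was 0.03 and -0.02. In 9 members the 9 other libraries were all above both libraries of day 0, which was so for 22.1% of all genes, and in Bcat1 all were below, which was so for 24.2%. For Acadsb alone the calls were lost in 6 of 16 alternative fits for each day. The other 9 members kept their calls in 288 of 288 tests over the same 16 alternatives and both days, with a highest adjusted p of 0.0309.

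**Figure D1:**
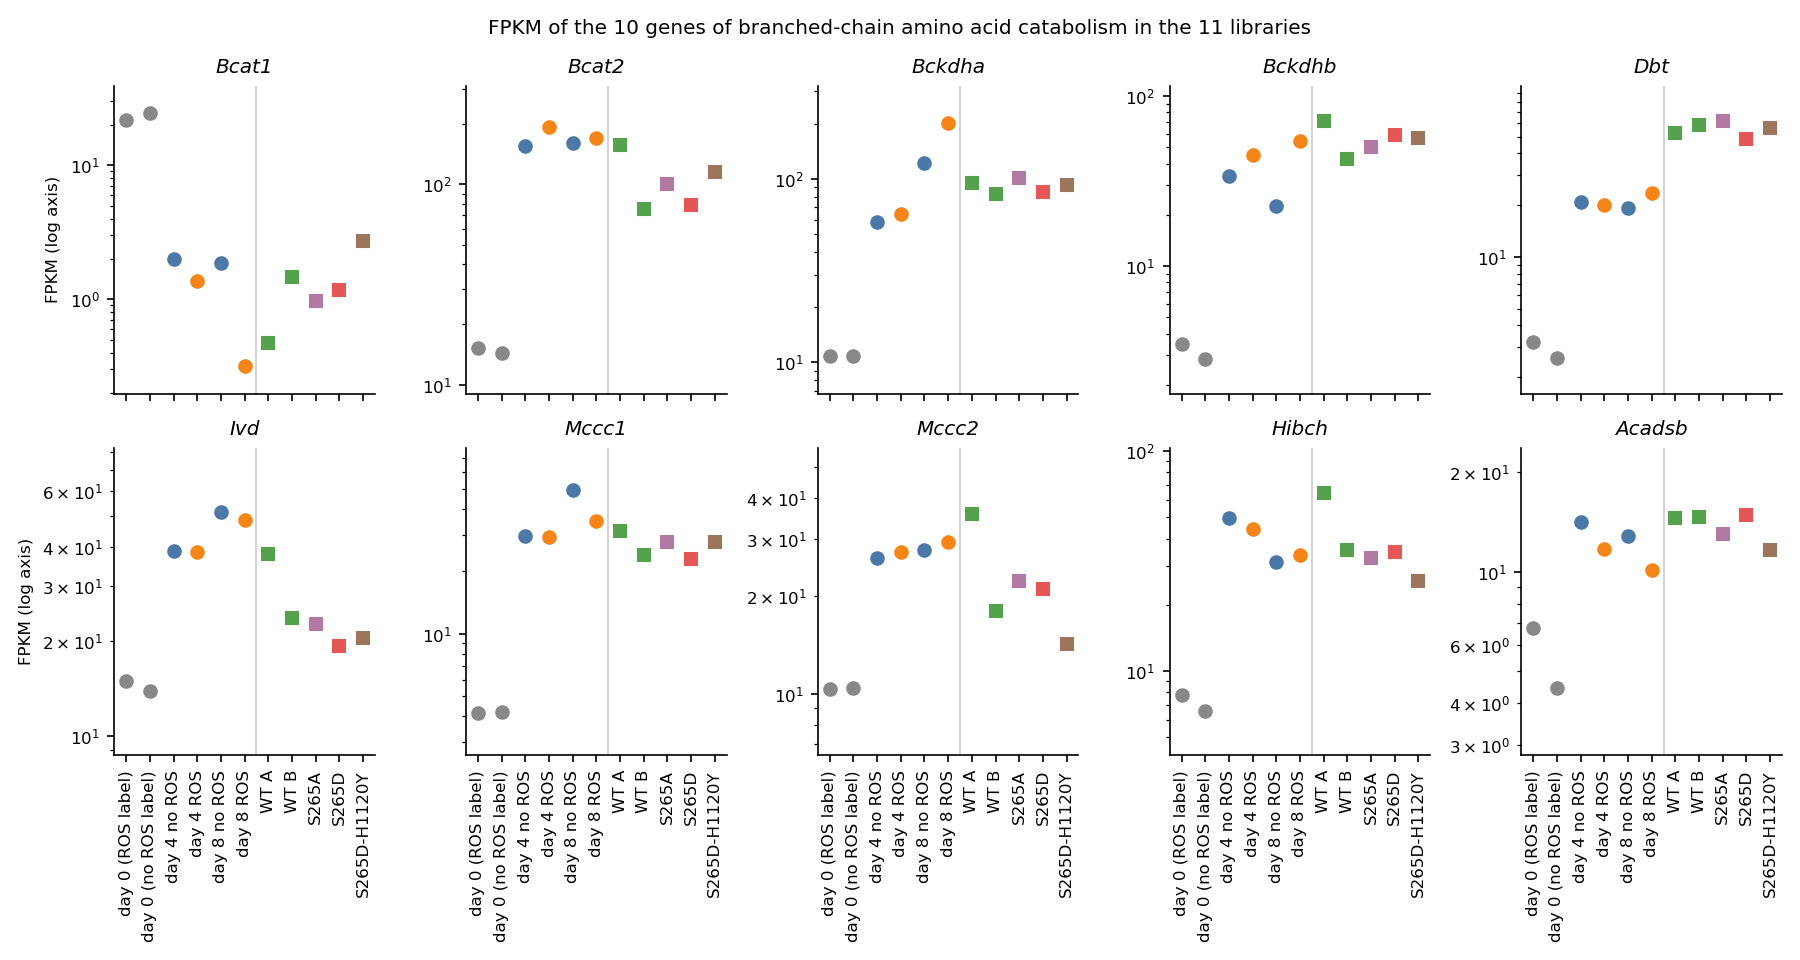
FPKM (log axis, its range set for each gene) of the 10 members in the 11 libraries, 1 point per library, with the time course as circles (grey day 0, blue without ROS, orange with ROS) and the transduced libraries as squares. Bcat1 falls from 21.8 and 24.4 at day 0 to between 0.316 and 2.73 elsewhere, and the 9 other genes sit above their level of day 0 in every later library.

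Bcat1 and Bcat2 catalyse the same reversible transamination in different compartments. Bcat1 was at 21.8 and 24.4 FPKM in the preadipocytes of day 0, at 2.00 without and 1.36 with ROS at day 4, at 1.86 without and 0.316 with ROS at day 8, while WT A had 0.472, WT B 1.46, S265A 0.969, S265D 1.18 and S265D-H1120Y 2.73. The preadipocytes were high, the library of day 8 with ROS was the lowest, and day 0 did not overlap the rest. Its log2 change was -3.72 ± 0.39 (SE) at day 4 and -4.68 ± 0.39 at day 8 (limma, adjusted p = 0.000732 and 0.000265), the second being a fall to 0.0390 times the level of day 0 (95% interval 0.0202 to 0.0751). The size of the fall depended on single libraries, with a log2 change at day 4 of -2.87 without the untreated and -4.58 without the ROS library of that day, and at day 8 of -5.54 without the untreated and -3.83 without the ROS library. With a pseudocount of 1 the change at day 8 was -3.63, and Bcat1 was called in all of these fits. The 6 preadipocyte or fibroblast markers (Pdgfra, Pdgfrb, Cd34, Ly6a, Dlk1, Thy1) summed to between 553.7 and 622.0 FPKM at day 0, to between 139.5 and 570.8 at days 4 and 8 and to between 146.5 and 569.4 in the transduced libraries. At day 8 without ROS that sum was 570.8, within the range of day 0, while Bcat1 was at 1.86. Most of each of these sums was Ly6a, at 424 and 484 FPKM at day 0 and 495 at day 8 without ROS. Pdgfrb was at 70.3 and 73.2 at day 0 and 16.1 at day 8 without ROS, and Cd34, Dlk1 and Thy1 were also lower there. Pdgfra was higher, at 11.9 and 11.8 at day 0 and 35.2 at day 8 without ROS. The part of these cells in the Bcat1 level was not tested.

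Bcat2 was at 15.2 and 14.4 FPKM at day 0, at 156 without and 194 with ROS at day 4, at 160 without and 171 with ROS at day 8, while WT A had 158, WT B 75.4, S265A 100.1, S265D 78.7 and S265D-H1120Y 115. It was low in the preadipocytes and had reached its later level by day 4, when the libraries of days 4 and 8 lay within 156 to 194. Its log2 change was 3.54 ± 0.11 at day 4 and 3.47 ± 0.11 at day 8 (limma, adjusted p = 1.25e-05 and 1.26e-05), the second being a rise of 11.1-fold (95% interval 9.18 to 13.4). Between day 4 and day 8 it differed by -0.07 ± 0.11 (adjusted p = 0.700), with an interval for the fold from 0.789 to 1.15.

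The 2 transaminases thus exchanged places. Bcat2 was at 0.698 and 0.592 times the FPKM of Bcat1 in the libraries of day 0. It was at 77.8 times Bcat1 without and 142 times with ROS at day 4, and at 86.1 times without and 542 times with ROS at day 8. In the transduced libraries the ratio was 334 (WT A), 51.5 (WT B), 103 (S265A), 66.6 (S265D) and 42.3 (S265D-H1120Y). Bcat1 made up 58.9% and 62.8% of the summed FPKM of the pair at day 0 and between 0.184% and 2.31% in the 9 other libraries. These ratios and shares use the representative transcripts, and their size depends on that choice. The short transcript of Bcat1 was at 61.1 and 69.0 FPKM at day 0 and at 6.90 in S265D-H1120Y. With each of the 3 Bcat1 transcripts, Bcat2 was below Bcat1 at day 0 and above it in the 9 other libraries.

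**Figure D2:**
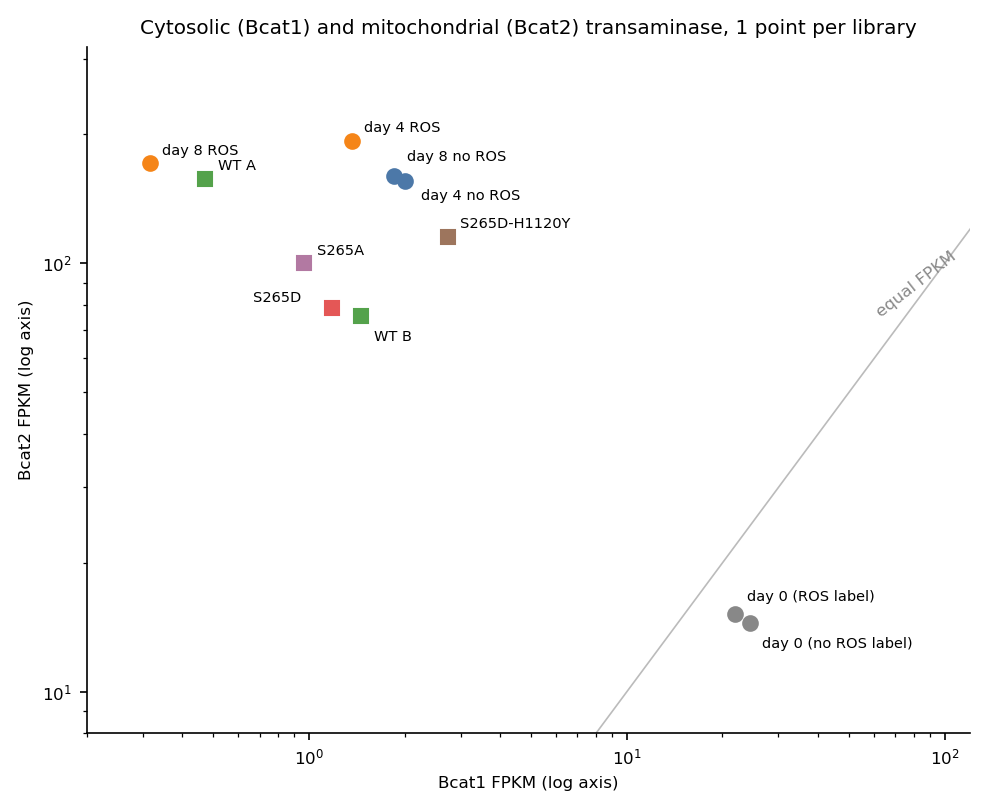
FPKM of Bcat1 (horizontal, log axis) against Bcat2 (vertical, log axis), 1 point per library, with circles for the time course and squares for the transduced libraries, and a grey line of equal FPKM. The pair of day 0 lies below the line, with ratios of Bcat2 to Bcat1 of 0.698 and 0.592, and the 9 other libraries lie above it, with ratios from 42.3 to 542.

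The dehydrogenase complex, which takes the committed step, is built of the E1 subunits Bckdha and Bckdhb and the E2 transacylase Dbt. Bckdha, the E1α subunit, was at 10.8 FPKM in both libraries of day 0, at 57.9 without and 64.3 with ROS at day 4 and at 122 without and 201 with ROS at day 8. The transduced libraries had 95.1 (WT A), 82.5 (WT B), 102 (S265A), 84.3 (S265D) and 92.2 (S265D-H1120Y), a narrow range between the levels of day 4 and day 8. The rise went on after day 4, to a log2 change of 2.48 ± 0.15 at day 4 and 3.84 ± 0.15 at day 8 (limma, adjusted p = 0.000109 and 2.36e-05). Bckdha was the only member called between day 4 and day 8 (log2 change 1.36 ± 0.15, adjusted p = 0.0175), a comparison that called 9.77% of all genes. This call rests on the fit, since it was kept in 6 and lost in 10 of 16 alternatives, with adjusted p from 0.0052 to 0.147 and a log2 change from 1.08 to 1.64, and leaving out any 1 of the 6 libraries ended it.

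Bckdhb, the E1β subunit, was at 3.46 and 2.84 FPKM at day 0, at 34.0 without and 44.9 with ROS at day 4, at 22.4 without and 54.7 with ROS at day 8, while WT A had 71.5, WT B 42.3, S265A 50.03, S265D 58.6 and S265D-H1120Y 56.3. The untreated library of day 8 was the lowest after day 0, below its counterpart of day 4. The log2 change was 3.60 ± 0.22 at day 4 and 3.44 ± 0.22 at day 8 (limma, adjusted p = 0.000117 and 0.000115). Bckdha was thus at 1.33 to 5.45 times Bckdhb over the libraries after day 0, with the ratio of 5.45 at day 8 without ROS and of 3.67 at day 8 with ROS, and at 3.13 and 3.82 times at day 0.

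Dbt, the E2 core of the complex, was at 3.19 and 2.57 FPKM at day 0, at 21.0 without and 19.9 with ROS at day 4 and at 19.4 without and 23.6 with ROS at day 8. In the transduced libraries it was at 52.3 (WT A), 58.3 (WT B), 61.6 (S265A), 48.7 (S265D) and 56.2 (S265D-H1120Y). The transduced libraries all lay above the untransduced ones, and the WT mean (n = 2) was 2.35 times the untransduced library of day 8 with ROS. For Bckdha the same ratio was 0.443, in the other direction. The 2 experiments differ in the constructs and drug selection and were not compared by a test, so that construct and experiment cannot be told apart. The log2 change of Dbt was 2.79 ± 0.16 at day 4 and 2.86 ± 0.16 at day 8 (limma, adjusted p = 9.14e-05 and 7.47e-05).

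The arm of leucine is represented by Ivd, which oxidises isovaleryl-CoA, and by Mccc1 and Mccc2, the α and β subunits of the biotin-dependent methylcrotonyl-CoA carboxylase. Ivd was at 14.9 and 13.9 FPKM at day 0, at 38.7 without and 38.5 with ROS at day 4 and at 51.5 without and 48.7 with ROS at day 8. It was lower in all 5 transduced libraries than at days 4 and 8 of the time course, at 37.9 (WT A), 23.6 (WT B), 22.7 (S265A), 19.4 (S265D) and 20.5 (S265D-H1120Y), and WT A stood apart from the other 4. Its log2 change was 1.42 ± 0.11 at day 4 and 1.79 ± 0.11 at day 8 (limma, adjusted p = 0.000232 and 8.59e-05).

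Mccc1 was at 4.15 and 4.18 FPKM at day 0, at 29.5 without and 29.1 with ROS at day 4, at 49.2 without and 35.1 with ROS at day 8, and at 31.2, 24.02, 27.8, 23.0 and 27.8 in WT A, WT B, S265A, S265D and S265D-H1120Y. Mccc2 started higher and rose less, from 10.3 and 10.4 at day 0 to 26.1 without and 27.4 with ROS at day 4 and 27.7 without and 29.3 with ROS at day 8, with 35.8, 18.0, 22.2, 21.0 and 14.2 in the transduced libraries in the same order. The 2 subunits of 1 enzyme therefore stood at a ratio of Mccc1 to Mccc2 of 0.402 and 0.401 at day 0 and of 0.871 to 1.96 in the 9 other libraries. At day 8 the log2 change was 3.29 ± 0.14 for Mccc1 and 1.45 ± 0.11 for Mccc2 (limma, adjusted p = 3.09e-05 and 0.000167).

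In the arms of valine and isoleucine, Hibch, which hydrolyses 3-hydroxyisobutyryl-CoA of the valine arm, was at 7.78 and 6.62 FPKM at day 0, at 49.5 without and 44.3 with ROS at day 4 and at 31.1 without and 33.7 with ROS at day 8. The difference between day 8 and day 4 did not pass the test (log2 change -0.53 ± 0.14, limma, adjusted p = 0.0597). WT A had 64.5, WT B 35.4, S265A 32.8, S265D 34.6 and S265D-H1120Y 25.7, and WT A stood apart. Against day 0 its log2 change was 2.69 ± 0.14 at day 4 and 2.16 ± 0.14 at day 8 (limma, adjusted p = 5.71e-05 and 0.0001). Acadsb, the short/branched-chain acyl-CoA dehydrogenase of the isoleucine arm, was at 6.78 and 4.45 FPKM at day 0 and between 10.2 and 14.8 in the 9 other libraries. It had both the widest gap between the libraries of day 0 (1.52-fold) and the smallest rise among the 9 genes, with a log2 change of 1.21 ± 0.21 at day 4 and 1.04 ± 0.21 at day 8 (limma, adjusted p = 0.00482 and 0.00706). Over the alternative fits these adjusted p-values went from 0.0012 to 0.139 at day 4 and from 0.00186 to 0.163 at day 8, and the calls were lost without any 1 of the 4 libraries of days 4 and 8.

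**Figure D3:**
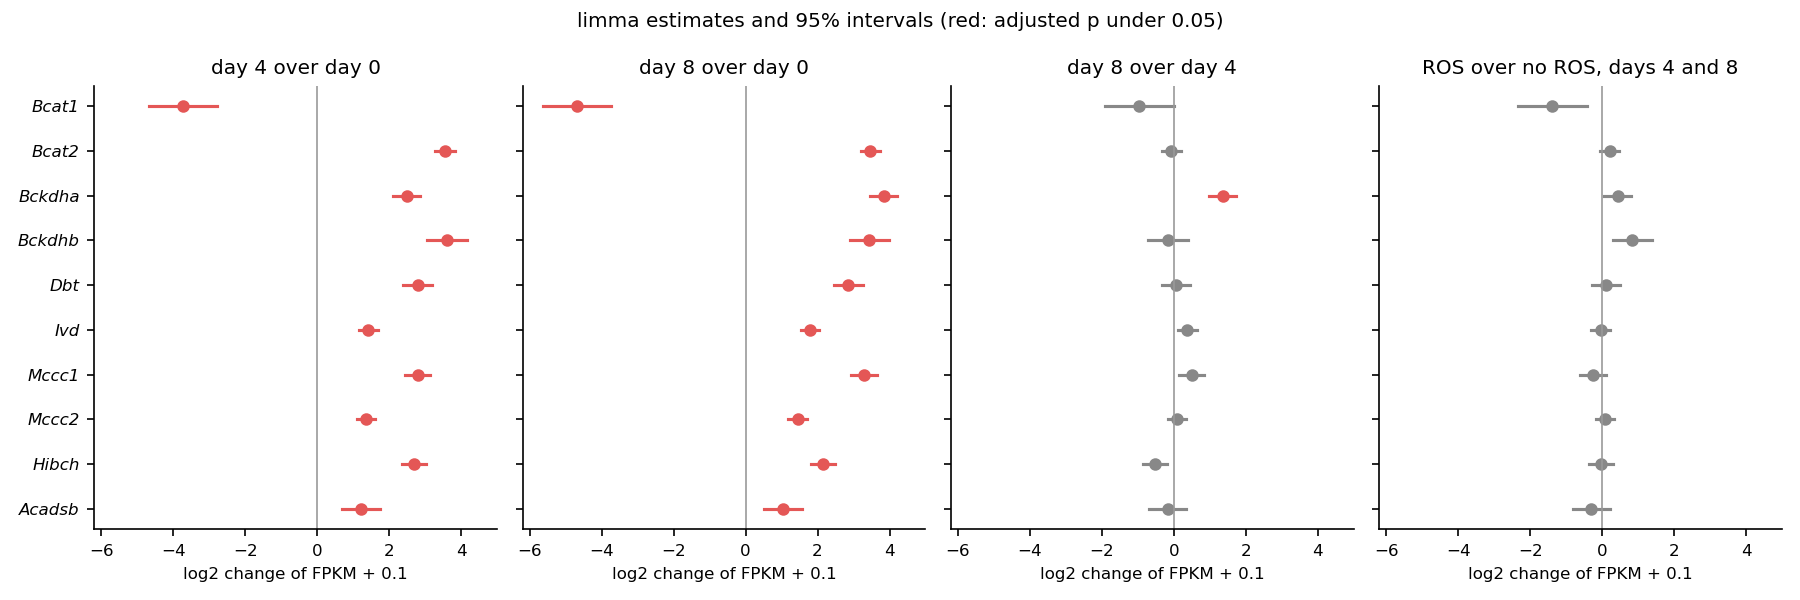
limma estimates (points) with 95% intervals (lines) of the log2 change of FPKM + 0.1 for the 10 members in 4 comparisons of the time course, in red where the adjusted p is under 0.05. All 10 genes are red for days 4 and 8 over day 0, with Bcat1 alone to the left of 0, Bckdha alone is red for day 8 over day 4, and none is red for ROS.

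ROS makes the im-scWAT culture beige, and it was asked whether it also moved these genes. At an adjusted p of 0.05 in limma, 0 of the 10 members and 0 of all 15369 genes (0%) differed with ROS over days 4 and 8. The 2 residual degrees of freedom of this fit are the pair of day 0 and the change of the ROS effect between days. An effect of ROS at day 8 alone therefore widens the spread, and this count cannot decide on it. At an unadjusted p under 0.05 there were 3196 genes, among them 3 members. These were Bckdhb (log2 change 0.84 ± 0.22, adjusted p = 0.154), Bcat1 (-1.38 ± 0.39, adjusted p = 0.159) and Bckdha (0.43 ± 0.15, adjusted p = 0.195), and the median of all genes was -0.13. Scaling each library to its median gene made 42 calls among all genes but 0 among the members.

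Both libraries of day 4 were close, with 0 of the 10 members 2-fold apart (6.56% of all genes), as were the 2 libraries of day 0 (0 of 10 members, 5.60% of all genes). At day 8, Bckdhb was 2.44-fold higher and Bcat1 was at 0.170 times its untreated level with ROS, and 18.0% of all genes were 2-fold apart. Bckdha was 1.64-fold higher and Mccc1 was at 0.714 times the untreated level. The 6 other members, Bcat2, Dbt, Ivd, Mccc2, Hibch and Acadsb, were between 0.793 and 1.22 times. These are single libraries, for which the fold has no replicate check. The summed preadipocyte or fibroblast markers were at 139.5 FPKM with and 570.8 without ROS at day 8, the lowest and the highest of the 4 libraries of days 4 and 8. The summed adipocyte markers, mostly Fabp4, were at 35881 FPKM with and 9560.2 without ROS. All of them but Pparg (139.6 with and 231 without ROS) were higher with ROS, among them Cidec (2087 and 436) and Lipe (450.4 and 209). The part of either in the values of Bcat1, Bckdhb and Bckdha was not tested.

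A larger effect of ROS at day 8 than at day 4 was tested as an interaction, in which all 4 conditions are single libraries and the only measured spread is that of the 2 undifferentiated libraries of day 0 (1 residual degree of freedom). The SEs and p-values therefore assume that differentiated cultures vary as the pair of day 0 does. In this fit 0 members and 0% of all genes passed, with 2597 genes and 3 members at an unadjusted p under 0.05. The difference of the log2 effects was -1.71 ± 0.23 for Bcat1, 0.56 ± 0.09 for Bckdha (both adjusted p = 0.274) and -0.47 ± 0.10 for Mccc1 (adjusted p = 0.280). The count of genes depended on the settings. With each library scaled to its median gene, 938 genes passed, with Bcat1 (-1.58, adjusted p = 0.0012) and Bckdhb (1.02, adjusted p = 0.0087) among them. With no minimum FPKM 1464 genes passed, none of them a member.

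For the hJMJD1A constructs the question was whether the phosphorylation site or the catalytic site of the demethylase altered these genes. In limma 0 of the 10 members and 0% of all genes differed between S265A and WT, between S265D and WT, between S265D-H1120Y and S265D or between S265D and S265A, and the smallest adjusted p was 1. Only 59, 47, 144 and 47 genes had an unadjusted p under 0.05 in these 4 comparisons, and 0 of them were members. Because WT A and WT B give the only estimate of the spread, the intervals were wide. The fold of S265D over WT was 0.722 for Bcat2 with a 95% interval from 0.228 to 2.29, and 1.06 for Bckdhb with an interval from 0.419 to 2.71.

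The pair of WT libraries was itself far apart. WT B was at 3.10 times WT A for Bcat1 and at 0.478 times for Bcat2, and 25.1% of all genes differed by 2-fold or more in this pair. Of the 10 members, 7 were lower in WT B, among them Mccc2 (0.502 times), Hibch (0.549 times), Bckdhb (0.592 times) and Ivd (0.624 times), with a median log2 ratio of -0.53 over the members and 0.07 over all genes. Dbt and Acadsb were close in both, at 1.12 and 1.01 times. The 4 beige markers (Ucp1, Cidea, Cox8b, Elovl3) summed to 190.3 FPKM in WT A against 23.8 in WT B, and the preadipocyte or fibroblast markers summed to 146.5 and 569.4. These were the highest and lowest beige sums and the lowest and highest preadipocyte sums of the 5 transduced libraries. Of the adipocyte sums, mostly Fabp4, WT A had the lowest (15403 FPKM) and WT B the highest (28966). Fabp4 rose from 12393 FPKM (WT A) to 26902 (WT B), and Pparg was slightly higher in WT B (95.6 against 89.8). Adipoq, Plin1, Cebpa, Lipe and Cidec were lower there. The part of these marker levels in the difference of the members was not tested. Acta1 had 1.40 FPKM in WT A against 19.3 in WT B, with Myod1 and Ckm at 0.

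Against the mean of the WT pair, 0 of the 10 members were 2-fold different in S265A (8.48% of all genes) and 0 of 10 in S265D (7.02%). The choice of the WT library changed this. Against WT A alone, Bcat1 was 2.05-fold higher in S265A (17.5% of genes), and in S265D it was 2.50-fold higher with Bcat2 at 0.499 times (18.9%). Against WT B alone, 0 of 10 members were 2-fold different in S265A (11.4%) and 0 of 10 in S265D (8.10%). Between S265D-H1120Y and S265D, Bcat1 was 2.31-fold higher and was the only member past 2-fold, with 12.4% of all genes. In each of the 3 mutants, 5 of the 10 members lay outside the range of the WT pair, as did 46.7% of all genes in S265A, 43.7% in S265D and 58.6% in S265D-H1120Y, so these counts were near the background. Ivd, Hibch and Acadsb lay outside it in all 3 mutants, which was so for 23.8% of all genes. Ivd and Hibch (2 of 10) were below both WT libraries in all 3, which was so for 5.56% of all genes, and neither passed the test in limma.

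**Figure D4:**
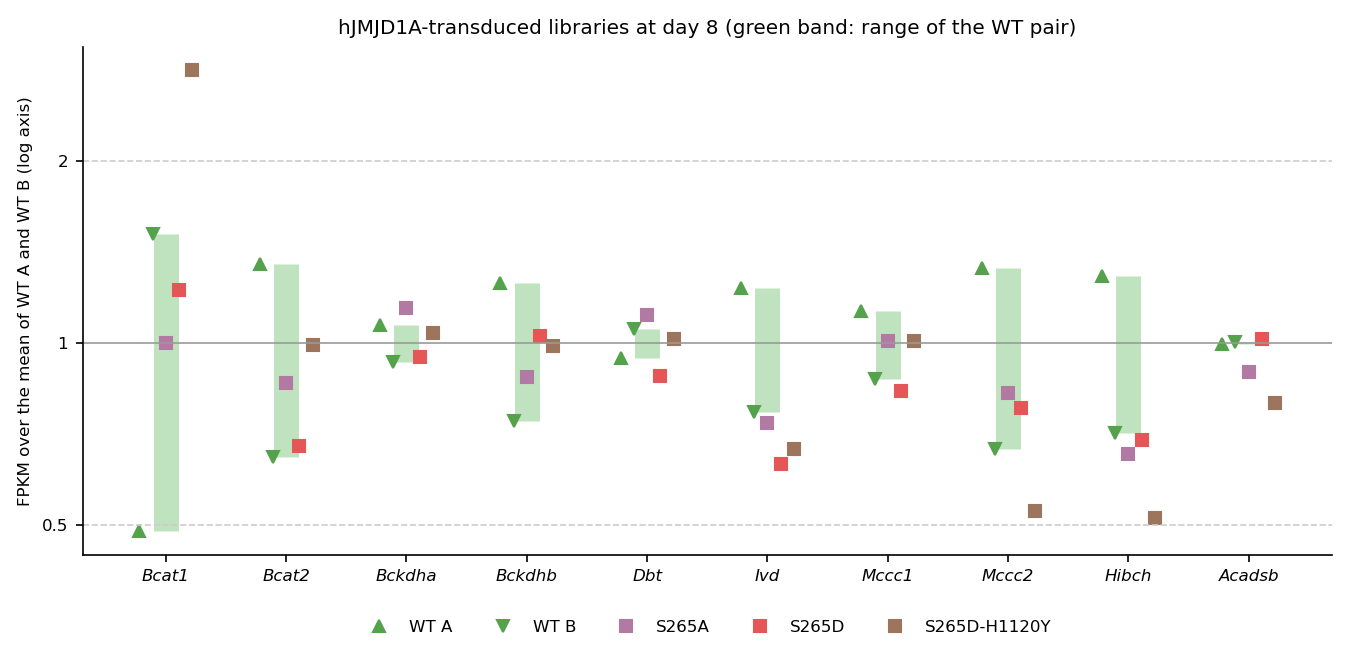
FPKM of each member in the 5 transduced libraries, as a ratio to the mean of the WT pair (log axis), with triangles for WT A (up) and WT B (down), squares for the mutants, a green band spanning the WT pair and dashed lines at 0.5 and 2. The band is widest for Bcat1, where WT B is at 3.10 times WT A, and most points of S265A and S265D lie in or near the band.

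The rest of the pathway was examined with a list of 25 further genes. At day 8 over day 0, 23 of them rose and 0 fell in limma, with 29.1% of all genes called higher and 29.7% lower. At day 4 again 23 rose and 0 fell, with 26.3% of all genes called higher and 24.7% lower. The median log2 change at day 8 was 1.91, against -0.02 for all genes. By comparison, all 16 genes of the tricarboxylic acid (TCA) cycle rose with a median of 1.78, and of 15 genes of mitochondrial fatty acid oxidation 14 rose and 1 fell with a median of 2.10. Since these mitochondrial lists moved alike, the counts do not set branched-chain catabolism apart from them.

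All 9 genes listed for the valine and isoleucine arms rose. Some of these, such as Hadha, are shared with fatty acid oxidation, where its partner Hadhb was listed, so the lists overlap in function. Aldh6a1, the methylmalonate semialdehyde dehydrogenase at the end of the valine arm, rose most, from a mean of 2.81 FPKM at day 0 to 71.1 without and 107 with ROS at day 8 (log2 change 4.91, adjusted p = 1.79e-05). Hibadh, which acts after Hibch, went from 21.4 to 126 and 199, and Echs1, an enoyl-CoA hydratase, from 23.4 to 160 and 243. The other 6 were Acad8, Hadha, Hsd17b10, Acat1, Acaa2 and Hadh, and the log2 changes of the 9 lay between 1.01 and 4.91. All 6 genes from propionyl-CoA to succinyl-CoA rose as well. Pccb and Pcca, the subunits of propionyl-CoA carboxylase, had log2 changes of 3.16 and 2.31 (adjusted p = 1.43e-05 and 5.85e-05), and the methylmalonyl-CoA mutase Mut had 2.16. The log2 changes of Mcee, Mmaa and Mmab lay between 0.52 (Mmab) and 2.80 (Mcee). In the leucine arm Auh had a log2 change of 1.91, and Oxct1, which activates acetoacetate, had 0.88.

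The regulators and transporters were less uniform. The complex is switched off by the kinase Bckdk and switched on by the phosphatase Ppm1k. Bckdk did not pass the test (0.41, adjusted p = 0.0502), with a mean of 25.6 FPKM at day 0 and 37.8 without and 30.5 with ROS at day 8. Ppm1k rose by 1.28 on the log2 scale, from 0.973 to 2.09 without and 3.00 with ROS, and remained the lowest of the 3 regulatory and E3 genes in FPKM. Dld, the E3 subunit shared with other dehydrogenases, rose by 1.44. Among the transporters, the mitochondrial branched-chain carrier Slc25a44 rose by 1.07 and the plasma membrane carrier Slc43a1 by 3.70, the latter from 0.225 FPKM at day 0 to 4.46 without and 3.74 with ROS. Slc3a2, the heavy chain that pairs with Slc7a5, rose by 1.18, while Slc7a5 did not pass (0.38, adjusted p = 0.251). Bckdk and Slc7a5 are named because they were the 2 genes that did not pass, which was known only after their values were seen. None of the 25 genes passed for ROS or for the constructs.

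**Figure D5:**
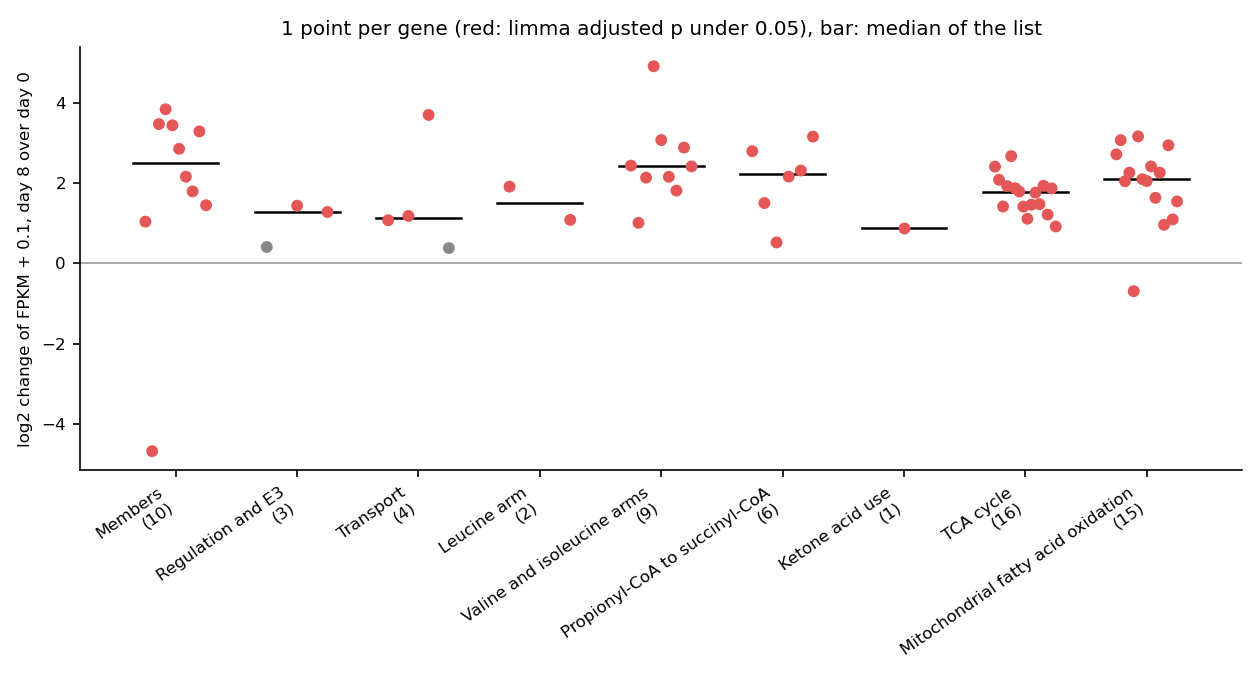
log2 change of FPKM + 0.1 at day 8 over day 0, 1 point per gene, for the 10 members, the 6 groups of other pathway genes, the TCA cycle and mitochondrial fatty acid oxidation, with the number of genes in brackets, a bar at each median and red where the limma adjusted p is under 0.05. The medians are 2.51 for the members, 1.78 for the TCA cycle and 2.10 for fatty acid oxidation, and Bcat1 at -4.68 is the lowest point.

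Among the 12416 genes with a mean of at least 1 FPKM, the pattern most like Bcat2 over the 11 libraries was that of Abhd15 (Pearson r = 0.986), followed by AK040172 (0.985), Dgat2, which makes triglycerides (0.985), Cd99l2 (0.984) and Fam83a (0.982). The Spearman values of these 5 lay between 0.8 (Dgat2) and 0.945 (Cd99l2). For Bcat1 the genes were Cd44, a surface receptor for hyaluronan (0.991), Sertad2 (0.984), Pdia3 (0.983), Rai14 (0.983) and Morn4 (0.981), with Spearman values between 0.918 (Pdia3) and 0.964 (Rai14). The libraries of day 0 stand apart from the other 9. Over the 9 differentiated libraries alone r was 0.840 to 0.935 for the 5 genes like Bcat2 and 0.919 to 0.957 for those like Bcat1. These are descriptions across libraries that share a cell line.

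Among the members, the likeness depended on the libraries of day 0. Over all 11 libraries the 36 pairs of the 9 rising members had a median r of 0.853 (0.368 to 0.968). Over the 9 differentiated libraries the same pairs had a median of 0.0341, with 18 positive and 18 negative values from -0.825 (Dbt with Ivd) to 0.858 (Bcat2 with Ivd). Dbt was lower and Ivd higher in all 4 untransduced libraries of days 4 and 8 than in the 5 transduced ones.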

How the data were processed

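RNA-seq libraries (TruSeq) of 11 im-scWAT samples were sequenced on a HiSeq instrument and aligned by the authors to UCSC transcripts and mm9 with Burrows-Wheeler aligner, locally realigned, and summarised as strand-specific FPKM per transcript. The authors deposited FPKM, its log10 and its log2, and mapped bases per transcript as coverage signal. No read numbers are given, so a count model was not applied. The 10 members and all gene lists were chosen with earlier results of these data known. Each symbol was taken as its representative sense transcript. Differences were tested with limma 3.58.1 (R 4.3.3) on log2(FPKM + 0.1), which understates changes of low genes, over 15369 genes with a mean of at least 0.1 FPKM, with a variance trend and Benjamini-Hochberg adjustment at 0.05 over all genes. The time course was fitted as day plus ROS, with day effects averaged over ROS. Its 2 residual degrees of freedom are the pair of day 0 and the day-by-ROS interaction. The transduced libraries were fitted as 1 mean per construct (1 residual degree of freedom). The script was tested on simulated data with the same noise level for every gene. That test does not address the spread between real libraries such as the WT pair. Between single libraries a ratio of at least 2 or at most 0.5 was counted, with no test. Named were all members, the pathway genes called at day 8, and the 5 genes most like Bcat1 and Bcat2. The values of 1 listed pathway gene are not reported here. Python 3.11.15, numpy 2.4.6, pandas 2.3.3 and matplotlib 3.10.9 were used. Alternatives changed the pseudocount, the minimum, the transcript, the scaling, the fit and the libraries.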

Additional observations from a re-analysis of the deposited data

Results flagged for a closer look

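Signal on the antisense strand, which no comparison used, was above both libraries of day 0 in all 9 other libraries, and reached at least 0.1 FPKM, for 4 of the 10 members, as it did for 5.86% of 15369 genes. That share is over all genes and was not taken over genes whose sense level rose. Bcat2 reached an antisense FPKM of 1.26 in WT A, against 0.0629 and 0.0768 at day 0. Its sense FPKM rose as well, from 15.2 and 14.4 at day 0 to 158 in WT A. Whether the antisense signal only follows the sense level was not tested. Bckdhb reached 0.328 (WT A), Dbt 0.201 (WT A) and Hibch 0.252 (WT A). The antisense value was at most 0.799% of the sense value for Bcat2 in any library, 0.458% for Bckdhb, 0.429% for Dbt and 0.534% for Hibch. Groups of 2 libraries were too small for a search for outlying libraries.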

How the results depend on the processing

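No paired analysis was possible because the groups compared share fewer than 2 replicate numbers. The members called for days 4 and 8 over day 0 stayed within 1.5 times of 10 under every alternative run. The 1 member called for day 8 over day 4 (Bckdha) became 0 with no minimum, without the variance trend, with 1 mean per day and ROS label or with ROS coded as labelled at day 0, 2 with median centring, and 0 to 0 when 1 library was left out. Over all genes that comparison called 1502, against 0 with no minimum or 1 mean per day and ROS label, 37 with ROS coded as labelled, 221 without the trend, 2342 with median centring and 0 to 14 with 1 library left out. Day 4 over day 0 called 7841 genes, against 4666 and 4556 without the first or second library of day 0 and 4107 without day 4 without ROS. Day 8 over day 0 called 9034, against 5799 and 5759 without the first library of day 0 or day 8 with ROS. For the interaction, median centring gave 2 members in place of 0. Against WT A alone, 1 member was 2-fold different in S265A and 2 in S265D, in place of 0.

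None of the values that changed sign was called. The log2 change with ROS became 0.0923 (Ivd) and 0.1121 (Hibch) with median centring and 0.0057 (Ivd) and 0.0615 (Hibch) with ROS coded as labelled. Leaving out 1 library gave -0.073 to 0.2825 for Dbt and -0.1606 to 0.1144 for Hibch. In the fit of all 11 libraries without WT A or without WT B, S265A over WT ranged from -0.548 to 0.9008 (Bcat1), -0.6543 to 0.409 (Bcat2), -0.5146 to 0.2414 (Bckdhb), -0.1649 to 0.2094 (Mccc1) and -0.686 to 0.3033 (Mccc2). S265D over WT ranged from -0.2861 to 1.1627 (Bcat1), -1.0013 to 0.062 (Bcat2), -0.1738 to 0.0308 (Bckdha), -0.288 to 0.468 (Bckdhb) and -0.7653 to 0.224 (Mccc2). The cause was not tested. With 1 library per ROS condition and per mutant, these effects and differences between cultures cannot be told apart, and the spread rests on few libraries.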

Other observations

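The short transcript of Bcat1 (1615 exon bases, against 7852 in the representative transcript) had 61.1 and 69.0 FPKM at day 0, against 21.8 and 24.4 for the representative transcript, and fell to 0.794 at day 8 with ROS. Its ratio of ROS over no ROS at day 8 was 0.153, against 0.170 for the representative transcript.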
